A study of Mus musculus with 15 samples.

Results

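Ventricular cardiomyocytes of newborn mice at postnatal day 1 (P1) were compared with those of adults aged 8 to 12 weeks, across all genes of the deposited expression table. The comparison holds the 4 P1 and the 7 adult libraries, chosen by their labels, which is 11 of the 15 libraries of the series. The 4 libraries of postnatal day 3 took no part in it. Both groups are wild-type C57BL/6 mice, and both share heart as the source, total RNA taken with TRIzol and the Illumina TrueSeq RNA Sample Prep kit, with no transgene, allele or treatment in the labels. The labels do not say how the muscle cells were separated from other heart cells, nor whether a library came from 1 animal or from a pool, so the p-values rest on a spread between samples that may be technical. Each of 9666 genes has a value in every library, given in RPKM (reads per 1000000 and per kilobase of the gene). The lowest value in the table is 0.1001 RPKM, so each listed gene lies above that level throughout, and a gene that falls under it in some library is not analysed here.

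The heart of a mouse grows after birth while its muscle cells leave the cell cycle, enlarge and become binucleate. In the same weeks the cells exchange fetal isoforms of contractile and metabolic proteins for adult ones, build transverse tubules and a denser sarcoplasmic reticulum, and turn from glucose and lactate to fatty acids as their main fuel. Hearts of newborn mice can regrow muscle after injury and adult hearts do so poorly, and the title of the series places the adhesion protein N-cadherin and its partner beta-catenin in that capacity. The comparison of day 1 with adult cells asks which transcripts separate the stages.

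Library totals bear on every value. The RPKM of the listed genes summed to 145050 to 280112 in adult libraries and to 274001 to 309909 in P1, the median gene stood at 2.02 to 3.52 and 8.41 to 8.79 RPKM, and the 10 highest genes took 17.2% to 19.7% and 6.0% to 8.1% of the sum. On this scale the median tested gene was 1.39 higher in P1 (log2). Changes are therefore given on the deposited scale and, where it matters, on 5 others: libraries centred on their median gene, quantile normalization, median-of-ratios scaling, an equal RPKM sum, and an equal sum without the 100 highest genes. Depth, estimated from values that step in whole reads, in units of 1000000 reads, was 6.3 to 17.2 in adult and 10.5 to 11.3 in P1. Of the 8673 genes whose reads could be recovered, 1053 had fewer than 10 reads in some library, so low values are imprecise. A gene was called when limma on log2(RPKM + 0.5) gave a p, adjusted by Benjamini and Hochberg's method, under 0.05 together with a log2 change of 1 or more in either direction. "Rose" and "fell" are used only of called genes, and folds of low genes are understated by the added 0.5.

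The label was checked against markers before the results. All 15 cardiomyocyte markers, among them Myh6, Tnnt2 and Ryr2, were in the table, and 7 of them were lower in P1. Their summed level ran from 24449 to 48434 RPKM in adult and from 7041 RPKM in P1 replicate 1 to 16577 RPKM in P1 replicate 4, so the groups did not overlap. Over all tested genes, 63.4% rose and 4.44% fell on the deposited scale, and 13.6% and 4.42% on all 6 scales. Markers of other cells were present too. On all scales 6 cardiomyocyte markers fell, while 3 fibroblast, 2 endothelial and 3 mural markers rose. Of 14 fibroblast markers 7 were listed and 6 rose, with sums of 3.89 to 211 RPKM in adult and 736 to 3230 RPKM in P1, highest in P1 replicate 1. Col1a1, Col1a2, Pdgfra and Tcf21 are not in the table. Of 16 endothelial markers 12 were listed and 9 rose, with sums of 10.8 RPKM (adult replicate 7) to 1371 RPKM (adult replicate 4) and 360.1 to 851 RPKM in P1, which overlap. By the mean log2 level of these markers, adult replicate 4 (5.02) alone of the adults reached the P1 range of 4.28 to 5.42. The endothelial list holds Fabp4, which is also on the list of adipocyte markers. Of 11 mural markers 6 were listed and 3 of the 5 tested rose, with sums of 161 to 464 and 428 to 1155 RPKM, which overlap. The mural list holds Des, which is also in the Z-disc list below. Vim, described below, makes up a large part of the P1 fibroblast sums. A sum can thus follow a single member. Of 10 atrial markers 3 were listed (Nppa, Myl4 and Tbx5), with sums of 6.96 to 35.2 and 669 to 1345 RPKM. Nppa and Myl4 rose, and Tbx5 was not called (0.37). Nppa, described below, makes up most of the P1 atrial sums. None of the 14 immune, 10 epicardial, 9 Schwann and neuronal or 9 erythroid markers was listed. P1 replicate 1 and adult replicate 4 stand apart in these sums, the latter with the highest RPKM total of the adults as well. As a share of the total, the cardiomyocyte sum was 17.3% in adult replicate 4, 16.2% to 17.6% in the other adults and 2.34% to 5.73% in P1. In such samples fewer cells of a type and less RNA per cell cannot be told apart. The part of other cells in the results below was not tested.

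**Figure D1:**
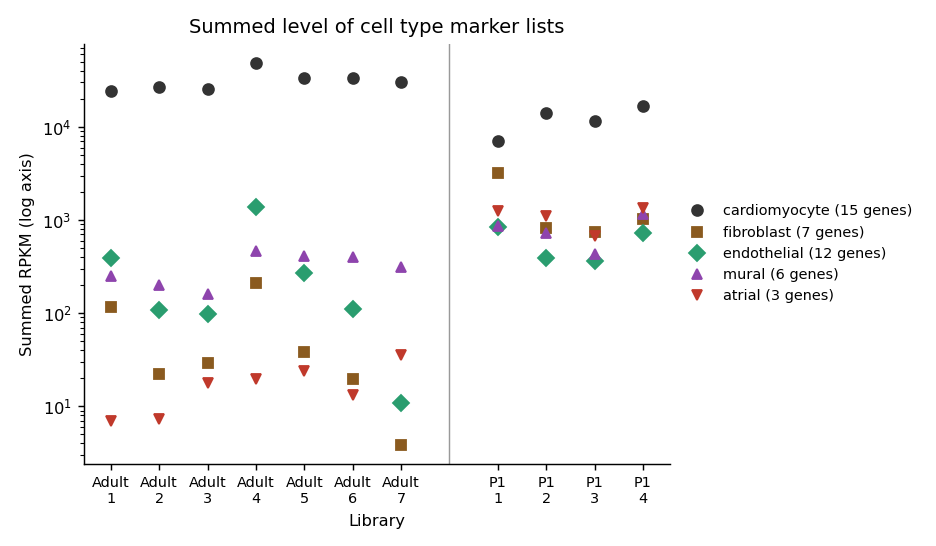
Summed RPKM of 5 cell type marker lists (log axis) in each of the 7 adult and 4 P1 libraries, 1 point per list and library. The cardiomyocyte sums of P1 (7041 to 16577 RPKM) lie below all adult sums (24449 to 48434 RPKM), fibroblast sums are highest in P1 replicate 1 (3230 RPKM), and the endothelial sums of the groups overlap.

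In all, limma called 5823 of 9190 tested genes higher in P1 (63.4%) and 408 lower (4.44%) on the deposited scale. On all 6 scales together 1250 genes were higher (13.6%) and 406 lower (4.42%), and on no other scale was a gene called opposite to its call as deposited. The other scales all lower P1 against adult, with the median tested gene at -0.06 to 0.79 in place of 1.39, so by their construction falls called as deposited tend to be kept and rises to be lost. The counts were 1286 higher and 1988 lower with the median gene, 1594 and 1671 by quantiles, 1448 and 1839 with median of ratios, 3842 and 854 with an equal sum, and 2530 and 1288 without the 100 highest genes. The share of calls that were higher went from 93.5% as deposited to 39.3% with the median gene. The groups did not overlap in 1242 of the 1250 rises and in 360 of the 406 falls found on all scales. Over all 9190 tested genes, P1 lay wholly above adult in 6012 and wholly below in 456, so such separation was common. The calls were made on the same values, which favours separation among called genes. Without P1 replicate 1 the counts were 5923 and 352, or 1092 and 350 on all scales, and without P1 replicate 1 and adult replicate 4 they were 6067 and 333, or 1135 and 332. Of the original calls 5756, 321, 1080 and 320 remained in that last setting. Adult replicates 1 to 4 had estimated depths of 6.3 to 11.1 in those units and 5 to 7 of 16.8 to 17.2, and the labels name no batch. Against the former set the calls were 6168 and 364, and against the latter 5320 and 505. Spearman correlations of libraries, computed across genes that are not independent replicates, had a median of 0.956 among P1 libraries, 0.957 within an adult set, 0.938 across the adult sets and 0.722 between P1 and adult.

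**Figure D2:**
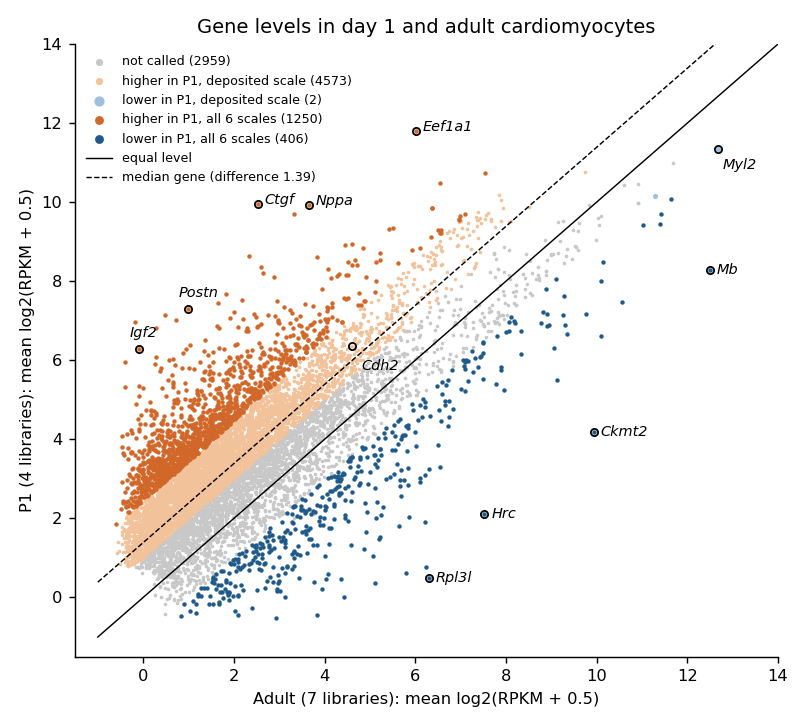
Mean log2(RPKM + 0.5) of each of the 9190 tested genes in 7 adult libraries (x) and 4 P1 libraries (y), coloured by call. The solid line marks equal levels and the dashed line the median gene, 1.39 higher in P1, and the 406 genes lower on all 6 scales lie below both.

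The largest rises and falls were taken only from genes whose groups did not overlap. Ctgf and H19 were among the largest rises. Ctgf, a secreted matricellular protein and a standard target of the YAP coactivator, read 1251, 1078, 664 and 1066 RPKM in P1 replicates 1 to 4, and 2.76, 5.44 and 13.6 RPKM in the lowest, median and highest adult library. All P1 libraries lay far above all adult ones, and the change was 7.43 (SE 0.33, limma adjusted p = 1.6e-10), or 5.98 relative to the median gene. H19, an imprinted long noncoding RNA of fetal tissues (chromosome 7, 142575529 to 142578143, minus strand in mm10), read 367, 71.8, 46.9 and 194 RPKM in P1 against 0.127, 0.338 and 0.766 RPKM in adult. P1 libraries spread widely here, without overlap with adult, and the change was 7.15 (SE 0.43, adjusted p = 2.4e-09 in limma). Igf2, the fetal growth factor that lies next to H19 and is expressed from the other parental allele (chromosome 7, 142650766 to 142666816, minus strand), rose with it, by 6.37 (SE 0.31). Its P1 values were 107, 64.4, 58.6 and 89.3 RPKM and its adult values 0.129 to 1.62 RPKM, with a median of 0.303 RPKM. Both imprinted transcripts were low in every adult library.

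Among the other large rises were Tagln (6.68), the smooth muscle actin-binding protein transgelin, Fn1 (6.53), which encodes fibronectin, Vim (6.37), the intermediate filament vimentin, and Postn (6.32), the matrix protein periostin. Postn stood at 634.5 RPKM in P1 replicate 1 and at 95.3 to 103.5 RPKM in the other P1 libraries, and its change was 5.65 without that library. Vim was likewise highest in P1 replicate 1, at 1764 RPKM against 509.9 to 834.8 RPKM. Both genes are among the fibroblast markers summed above. Cd24a, a small surface glycoprotein, read 45.2, 63.8, 100.9 and 50.4 RPKM in P1, and no adult library exceeded 0.417 RPKM (change 6.36, SE 0.22, limma adjusted p = 6.5e-11). Hmox1, the heme-degrading enzyme, ranged from 28.9 to 384.5 RPKM in P1 and from 0.194 to 2.48 RPKM in adult, so its change of 6.29 became 7.00 without P1 replicate 4. Nppa, the atrial natriuretic peptide that fetal ventricles also make, read 1161, 988, 599 and 1320.0 RPKM in P1 and 5.35, 14.4 and 30.7 RPKM in adult (change 6.28, SE 0.41, adjusted p = 4.4e-09, limma). Nmrk2, a nicotinamide riboside kinase of muscle, rose by 5.82, from 0.392 to 1.33 RPKM in adult to 40.5 to 132.8 RPKM in P1. S100a11 (6.29), a calcium-binding protein, and Tmsb10 (5.79), an actin-sequestering thymosin, were also among the largest rises, as was Eef1a1.

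Eef1a1, the general translation elongation factor, had the highest mean of the listed transcripts of P1, although Actc1 was higher in P1 replicate 4 (4685 RPKM). It read 3699, 3976, 3456 and 3199 RPKM there and 26.2, 61.3 and 270.8 RPKM in adult (change 5.78, SE 0.48, adjusted p = 3.4e-08 in limma). Many processed copies of this gene exist in the mouse genome, and how the counting split its reads is not given in the sources used here.

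Rpl3l, Ckmt2 and Hrc were among the largest falls. Rpl3l, which replaces the general ribosomal protein Rpl3 in striated muscle (chromosome 17, 24727820 to 24736143, plus strand in mm10), read 0.656, 1.07, 1.17 and 0.780 RPKM in P1 and 54.2, 75.0 and 134 RPKM in adult. No P1 library came near an adult one, and the change was -5.81 (SE 0.24, adjusted p = 8.8e-11 in limma), or -7.26 relative to the median gene. Ckmt2, the mitochondrial creatine kinase of sarcomeric muscle (chromosome 13, 91853387 to 91876885, minus strand), read 10.2, 25.7, 17.4 and 21.2 RPKM in P1 and 782, 901 and 1417 RPKM in adult. It was lowest in P1 replicate 1, and its change was -5.75 (SE 0.26, adjusted p = 1.6e-10 in limma). Hrc, which binds calcium inside the sarcoplasmic reticulum, stood at 1.60 to 5.68 RPKM in P1 and at 134 to 239 RPKM in adult (-5.41), and was lowest in P1 replicate 1. Acss1, the mitochondrial acetyl-CoA synthetase, stood at 0.529 to 1.77 RPKM and 41.0 to 86.0 RPKM (-5.17).

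Mb, the oxygen-binding myoglobin, had the second highest mean of the listed transcripts of adult cells, after Myl2. It read 228, 428, 318 and 304 RPKM in P1 and 4533, 5485 and 9306 RPKM in adult, without overlap (change -4.21, SE 0.27, limma adjusted p = 4.5e-09). Plin5 (-4.76) coats lipid droplets in oxidative tissue, Asb14 (-4.42) is a substrate adaptor of a ubiquitin ligase, Fndc5 (-4.31) is the precursor of irisin, and Slc38a3 (-4.29) is a glutamine transporter. Cmya5 (-4.01) encodes myospryn of the sarcomere periphery, Ogdhl (-3.91) resembles the oxoglutarate dehydrogenase subunit, Hfe2 (-3.84) encodes hemojuvelin, an iron-sensing coreceptor, and Ephx2 (-3.83) is the soluble epoxide hydrolase. Cmbl (-3.73), a hydrolase, was the smallest of these falls. Each of these 10 genes was lower in every P1 library than in any adult library, which the rule for choosing them required.

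**Figure D3:**
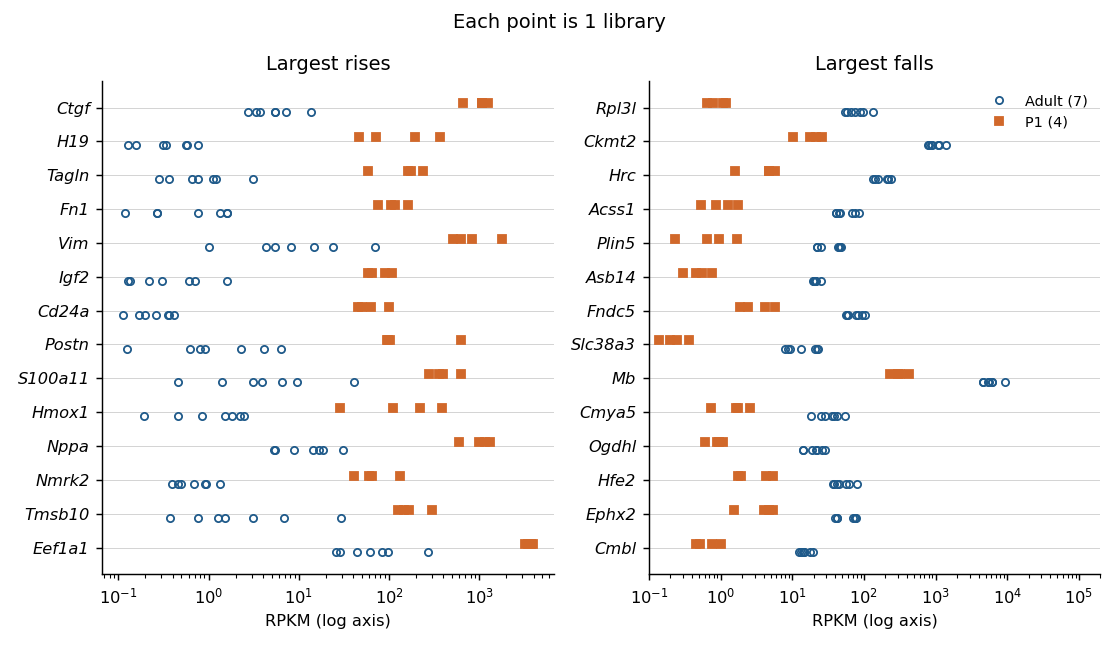
RPKM (log axis) of 14 of the largest rises and 14 of the largest falls in P1 among genes called on all 6 scales, 1 point per library, with adults as open circles and P1 as squares. P1 values of the rises are close together for Eef1a1 (3199 to 3976 RPKM) and wide for Hmox1 (28.9 to 384.5 RPKM) and H19 (46.9 to 367 RPKM), and no gene shown overlaps between groups, which the rule for choosing them required.

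The 10 highest means in adult were Myl2, Mb, Actc1, Myl3, Tnni3, Fabp3, Slc25a4, Myh6, Tnnc1 and Tpm1, which encode contractile proteins, carriers of oxygen and fatty acids, and the adenine nucleotide carrier of mitochondria. In P1 they were Eef1a1, Myl2, Actc1, Ankrd1, Tpt1, Tnnt2, Ppia, Atp5b, Nppb and Slc25a4. Cardiac actin, Actc1, read 1402, 2017, 1321 and 4685 RPKM in P1 and 2211, 3704 and 4668 RPKM in adult, overlapped and was not called (-0.69, adjusted p = 0.0912 in limma), although it was called lower on 4 of the other scales (-1.39 to -2.26). Myl2, the ventricular regulatory light chain, read 1630.0, 3246, 2724 and 3181 RPKM in P1 and 5327, 6039 and 11910.0 RPKM in adult, fell by 1.34 (adjusted p = 0.00082) and lost the call with quantile normalization (-0.57). Ankrd1, a stretch-responsive Z-disc and nuclear protein and a YAP target, read 592, 2765, 1988 and 2523 RPKM in P1 and 115, 195 and 237 RPKM in adult, and rose by 3.19 (SE 0.36). P1 replicate 1 was the lowest P1 library for Ankrd1, Actn2, Tnnt2 and Myl3 alike. Ppia, the isomerase cyclophilin A, rose by 3.95 on the deposited scale. Tpt1, a growth-related translation protein, was called at 1.01 as deposited, lost the call without P1 replicate 1 (0.87), and turned to -0.44 with the median gene, -0.56 with median of ratios and -0.13 with an equal sum without the 100 highest genes.

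Promoter sequence is shown for 4 genes of the lists described next, a pair that rose and a pair that fell on all scales, because each holds a short motif that was searched over all promoters. The sequences are the 250 bases before the RefSeq start site on build GRCm38.p6, 5′ to 3′ on the gene's strand, with the motif, on either strand, in capitals. Ajuba, a LIM protein that restrains the Hippo kinases (chr14:54577662-54577911, minus strand), holds the TEAD element GGAATG in 2 places, at -186 and -164, both on the opposite strand and so printed as its reverse complement. Acta1, skeletal alpha-actin (chr8:123894776-123895025, minus strand), holds it once on the opposite strand, at -46. Synpo2l, an actin-binding protein of the Z-disc (chr14:20664575-20664824, minus strand), holds the MEF2 core TAAAAATA once on the opposite strand, at -143. Klf15, a repressor of growth genes and regulator of metabolism (chr6:90462326-90462575, plus strand), holds the E-box CACGTG in 2 places, at -228 and -172. A further match at -3 crosses the start site, so it is not whole in the printed bases and is not in capitals.
Ajuba: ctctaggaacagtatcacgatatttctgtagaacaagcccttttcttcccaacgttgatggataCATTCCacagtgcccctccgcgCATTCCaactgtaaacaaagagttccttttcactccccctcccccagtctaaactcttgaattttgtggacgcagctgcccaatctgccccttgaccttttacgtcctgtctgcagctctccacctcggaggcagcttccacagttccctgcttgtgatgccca
Acta1: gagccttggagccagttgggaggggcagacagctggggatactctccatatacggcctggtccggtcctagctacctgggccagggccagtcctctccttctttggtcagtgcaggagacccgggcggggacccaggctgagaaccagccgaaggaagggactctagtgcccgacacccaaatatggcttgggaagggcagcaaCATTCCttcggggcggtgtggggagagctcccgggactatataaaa
Synpo2l: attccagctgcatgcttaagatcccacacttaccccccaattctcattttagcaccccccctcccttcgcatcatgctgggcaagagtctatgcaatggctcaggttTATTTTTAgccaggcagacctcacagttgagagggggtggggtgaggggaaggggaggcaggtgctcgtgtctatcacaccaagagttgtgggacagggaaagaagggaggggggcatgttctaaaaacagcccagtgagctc
Klf15: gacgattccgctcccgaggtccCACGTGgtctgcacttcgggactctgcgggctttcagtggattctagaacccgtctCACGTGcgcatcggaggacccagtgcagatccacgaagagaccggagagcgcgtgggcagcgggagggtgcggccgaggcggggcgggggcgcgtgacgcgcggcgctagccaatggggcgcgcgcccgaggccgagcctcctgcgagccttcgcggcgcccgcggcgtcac

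Ajuba, with the pair of TEAD elements, read 16.1, 24.3, 13.99 and 19.6 RPKM in P1 and 0.170, 0.360 and 1.00 RPKM in adult, a rise of 4.30 (SE 0.24, adjusted p = 1e-09 in limma). Acta1 read 9.63, 4.89, 4.71 and 28.9 RPKM in P1 and 46.7, 81.9 and 147 RPKM in adult. It fell by 3.04 on the log2 scale (SE 0.42, adjusted p = 5.5e-06 in limma). Neither Ajuba nor Acta1 overlapped between groups. The number of TEAD elements did not go with direction among the named genes. Cmbl, with a pair of them, fell, and Nppb, with a single one, rose. Synpo2l read 29.05, 178, 148 and 208.5 RPKM in P1 and 5.85, 10.8 and 11.8 RPKM in adult, and its rise of 3.51 became 4.16 without P1 replicate 1, the low library. Klf15 read 1.16, 1.61, 1.36 and 0.852 RPKM in P1 and 4.33, 6.73 and 20.1 RPKM in adult (-2.40, SE 0.36), again without overlap.

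Over all genes, GGAATG on either strand was present in 13.83% of promoter windows of genes higher on all scales, 15.05% of those of genes lower on all scales, 11.66% of those of all tested genes and 14.66% of all windows of this length. The windows here run to 50 bases past the start, and windows were found for 1004 of the 1250 rises and 315 of the 406 falls. In the same order TAAAAATA was present in 1.0%, 2.43%, 1.41% and 2.72%, CACGTG in 13.21%, 8.25%, 10.69% and 7.15%, and the ETS motif CCGGAAG in 16.31%, 8.25%, 19.59% and 8.86%. The CCAAT box was present in 36.4%, 45.39%, 37.51% and 37.41%. These are shares of letter matches, not of bound sites. No motif of the set lies within another, although neighbouring matches can share bases. The remaining motifs searched gave, in that order, 3.17%, 2.18%, 3.29% and 1.79% for the CRE TGACGTCA, 2.63%, 1.7%, 1.97% and 1.07% for the E2F motif TTTCCCGC, 7.42%, 9.47%, 6.75% and 13.62% for the TATA box TATAAA, and 0.46%, 0.24%, 0.26% and 0.42% for the ERR element TCAAGGTCA.

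The counts of each gene list stand beside 63.4% higher and 4.44% lower among all tested genes. On all scales these shares were 13.6% and 4.42%. Genes of the thick and thin filaments moved in both directions. Of 22 tested, 6 rose and 7 fell (5 and 6 on all scales), with a median of -0.57 beside 1.39 over all tested genes, and of -0.76 to -2.02 on the other scales. The rises were Myl4 (5.38), the atrial and fetal essential light chain, the tropomyosins Tpm4 (5.22), Tpm3 (4.25) and Tpm2, the smooth muscle actin Acta2 (3.68), and Myh7. Acta2, Tpm4 and Tpm3 are also genes of smooth muscle and nonmuscle cells. Myl4 read 96.8, 120.0, 66.1 and 22.8 RPKM in P1 and 0.230, 1.12 and 2.16 RPKM in adult. Tnni3, the adult cardiac troponin inhibitor, read 536, 1101, 913 and 867 RPKM in P1 and 2004, 2361 and 5207 RPKM in adult, and fell by 1.73. Myh6, the fast adult myosin heavy chain, read 306, 950, 756 and 1006 RPKM in P1 and 1109, 1853 and 4211 RPKM in adult (-1.59, SE 0.42, adjusted p = 0.00221 in limma), with every P1 library below the adults by a narrow margin. Its change was -1.04 against adult replicates 1 to 4 and -2.33 against 5 to 7. Mylk3, the cardiac myosin light chain kinase, fell by 1.73. Myh7, the slow and fetal heavy chain, was called as deposited (1.58, adjusted p = 0.0106), but its groups overlapped, it was called on no other scale, and it was 2.51 higher than adult replicates 1 to 4 and 0.34, uncalled, against 5 to 7.

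The Z-disc, M-band and titin group was split as well, with 8 rises and 6 falls among 29 genes (6 and 6 on all scales) and a median of 0.0, which was -0.69 to -1.55 on the other scales. Tcap, the titin cap, read 23.98, 56.6, 47.5 and 62.8 RPKM in P1 and 245, 469.6 and 1342 RPKM in adult, and fell by 3.62. Fhl2, a LIM protein that tethers metabolic enzymes at the sarcomere, fell by 2.39, and Myoz2, the calcineurin-binding calsarcin of the Z-disc, by 2.06. Rises beside Synpo2l and Ankrd1 included Pdlim3 (3.55), an actinin-associated LIM protein. P1 replicate 1 was the lowest P1 library in Tcap and Myoz2. Titin itself (Ttn, -0.10), alpha-actinin (Actn2, -0.04) and desmin (Des, -0.19) were not called as deposited, and the list's other scales put 14 to 20 of its members lower, apart from the equal sum with 8.

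Of 33 calcium cycling and T-tubule genes, 13 rose and 7 fell, and on all scales 2 and 7. The median was 0.47 as deposited and turned to -0.03 to -0.98 on the 5 other scales, and to -0.02 against adult replicates 5 to 7 alone. The falls were of the release and uptake machinery of the sarcoplasmic reticulum: Hrc (-5.41), phospholamban Pln (-3.07), S100a1 (-2.05), Tmem38a (-1.79), the pump Atp2a2 (-1.64), triadin Trdn (-1.51) and the release channel Ryr2 (-1.47). Pln, which restrains the pump, read 81.0, 244, 302 and 170 RPKM in P1 and 1239, 1467 and 1713 RPKM in adult, without overlap. Sri (2.51), a calcium-binding regulator of release, rose on all scales. Casq2, the cardiac calsequestrin, missed the fold threshold (-0.83) as deposited and was called lower on the other 5 scales.

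Ion channel and gap junction genes had 7 rises and 7 falls of 22, and on all scales 0 rises and 7 falls. Their median of -0.05 was -0.61 to -1.49 on the other scales. Among the falls were the background potassium channel Kcnk3 (-2.42), the ATP-sensitive channel pore Kcnj11 (-2.06), the inward rectifiers Kcnj12 (-1.33) and Kcnj2 (-1.11), and the ion transport regulator Fxyd1 (-1.13), the last 3 being named after their values were seen. Kcnk3 read 3.70, 5.13, 2.92 and 2.87 RPKM in P1 and 16.4, 22.4 and 26.5 RPKM in adult. Only 4 members fell against adult replicates 1 to 4, and 10 against 5 to 7.

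As deposited, junction and adhesion genes rose about as often as genes in general. Of 40 tested, 24 rose and 2 fell, beside 63.4% and 4.44% of all tested genes. On all scales 10 rose, a share above the 13.6% of all tested genes, and 2 fell. The median of 1.61 stayed positive on the other scales (0.07 to 0.93). Cdh2, which encodes N-cadherin (chromosome 18, 16588877 to 16809246, minus strand), read 51.2, 105.9, 88.8 and 90.1 RPKM in P1 and 17.0, 22.0 and 32.2 RPKM in adult. P1 lay above adult in every library, with replicate 1 lowest, and the rise was 1.74 (SE 0.23, adjusted p = 3.3e-06 in limma). Ctnnb1, beta-catenin (chromosome 9, 120929216 to 120960507, plus strand), read 230.0, 176, 192 and 209 RPKM in P1 and 32.6, 55.2 and 62.4 RPKM in adult, a rise of 2.03 (SE 0.21, adjusted p = 3e-07 in limma), with replicate 1 highest. With an equal sum both stayed called (1.05 and 1.33), and Ctnnb1 with quantile normalization too (1.12). With the median gene, median of ratios and an equal sum without the 100 highest genes neither was called (0.29, 0.19 and 0.62 for Cdh2 and 0.58, 0.46 and 0.90 for Ctnnb1), nor was Cdh2 with quantile normalization (0.61).

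Larger rises in this group belonged to integrins and focal adhesion proteins. Itga5, the fibronectin receptor subunit, read 122, 66.5, 61.5 and 97.6 RPKM in P1 and 1.85, 3.98 and 5.24 RPKM in adult (4.37), Itgav rose by 3.67 and zyxin, Zyx, by 3.62. The falls were of Itgb1bp2, or melusin, a muscle-specific integrin-binding chaperone (-3.24), and Sgca, alpha-sarcoglycan of the dystrophin complex (-3.25). Melusin read 5.96, 11.9, 7.30 and 14.8 RPKM in P1 and 69.6, 91.8 and 138 RPKM in adult. The number of falls in the list was 4 without adult replicate 4, and 5 without P1 replicate 4 or against adult replicates 5 to 7.

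Among the pathway lists the nonmuscle actin cytoskeleton had the highest median. Of 36 tested genes 33 rose and none fell, 25 of them on all scales, and the median was 3.78, or 2.24 to 3.10 on the other scales. Actn1, the nonmuscle actinin, read 98.5, 84.4, 49.0 and 121 RPKM in P1 and 0.669, 1.79 and 2.14 RPKM in adult (5.36, SE 0.27, adjusted p = 5.1e-10 in limma). Tagln (6.68) and Tmsb10 (5.79) were the other top members. Fibroblasts, smooth muscle and endothelium express many of these genes too, and their marker sums are given above.

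Extracellular matrix genes rose in 26 of 32 cases with none lower, 21 of them on all scales, with a median of 3.21 (1.75 to 2.60 on the other scales). Beside Fn1 and Postn the largest was that of Bgn, the proteoglycan biglycan, at 444, 91.8, 68.0 and 111 RPKM in P1 and 0.289, 2.06 and 17.4 RPKM in adult (5.13, SE 0.70). Fibrillar collagen Col3a1 read 400.8 RPKM in P1 replicate 1 and 19.01 to 23.3 RPKM in the other P1 libraries, against 0.126 to 9.85 RPKM in adult, so its rise of 3.97 was 2.92 without that library. The list's median was 2.93 without P1 replicate 1.

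**Figure D4:**
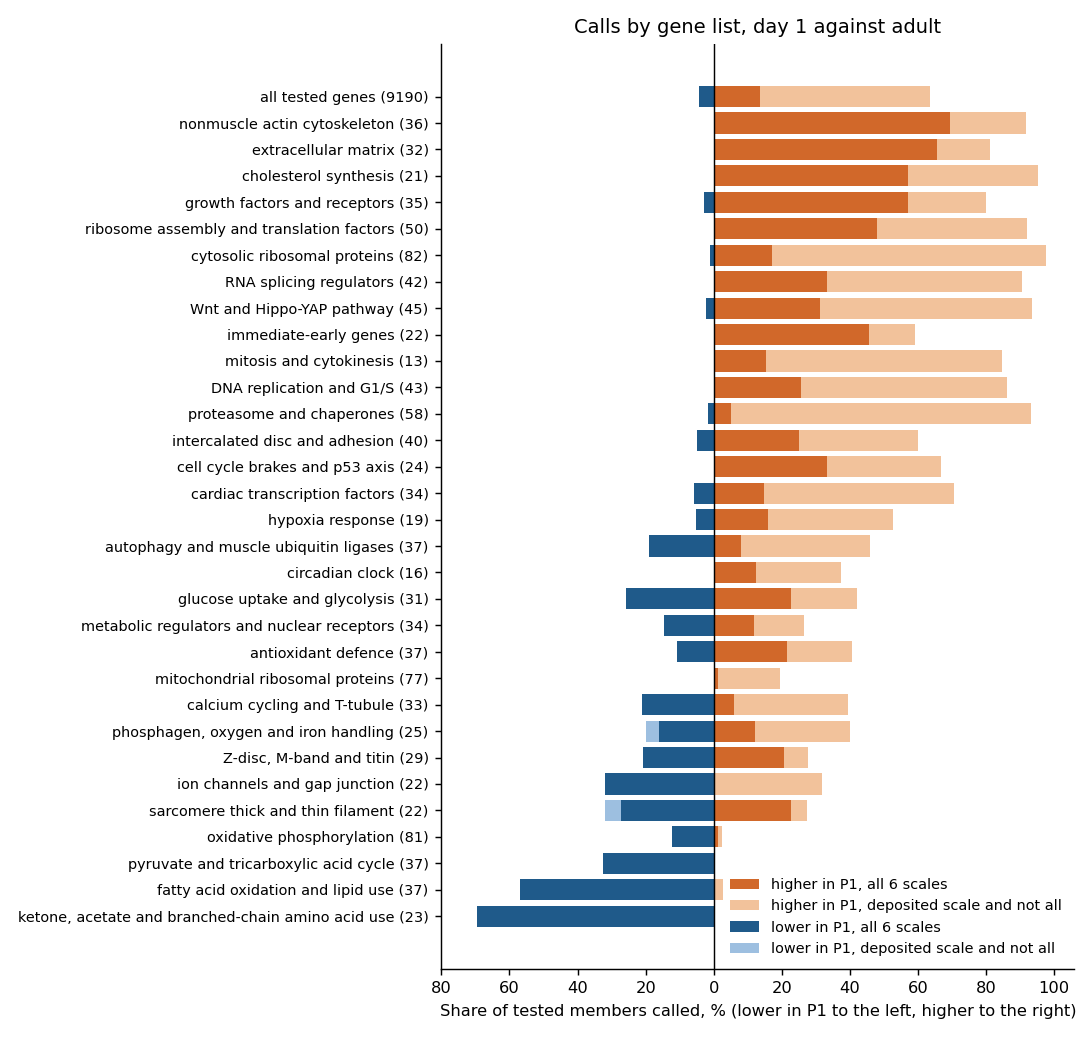
Share of the tested members of each gene list called lower (left) and higher (right) in P1, with the number tested in parentheses. Dark marks calls on all 6 scales, and light marks calls on the deposited scale that did not hold on all 6. The top bar is the background of all 9190 tested genes, 63.4% higher and 4.44% lower. Beside it, the list of ketone, acetate and branched-chain amino acid use has 16 of 23 lower. That of cytosolic ribosomal proteins has 80 of 82 higher. On all scales 14 of these are higher, near the 13.6% of all tested genes.

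Transcripts for burning fatty acids were lower at day 1. Of 37 tested, 21 fell on every scale and Cpt1a alone was called higher, with a median of -1.29 (-1.98 to -2.85 on the other scales, where 34 members were lower). The 21 falls stand beside 4.42% for all tested genes. Plin5 led them, at 0.233, 1.68, 0.962 and 0.653 RPKM in P1 and 21.9, 44.1 and 48.1 RPKM in adult. Dgat2, which makes triglyceride, fell by 3.18 from an adult median of 72.4 RPKM to 4.18 to 11.2 RPKM, and Ech1, an auxiliary enzyme for unsaturated fatty acids, by 2.75. Fabp3, the muscle fatty acid carrier, read 370.3, 1150.0, 697 and 824 RPKM in P1 and 2047, 2733 and 4365 RPKM in adult, and fell by 1.94. Cpt1a, the carnitine palmitoyltransferase of liver and fetal heart, rose as deposited (1.98) and with an equal sum, and was not called on the other 4 scales (0.53 to 0.94). Without P1 replicate 1 the falls were 18, and without it and adult replicate 4 they were 15.

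The use of ketones, acetate and branched-chain amino acids was the list with the largest share of falls. In 16 of 23 genes the level fell, on all scales, none rose, and the median was -1.53 (-2.21 to -3.01 elsewhere). Beside Acss1, Ivd, the isovaleryl-CoA dehydrogenase of leucine breakdown, read 4.19, 8.81, 7.54 and 7.05 RPKM in P1 and 44.0, 54.5 and 71.0 RPKM in adult (-3.01). Aldh6a1, of the valine and thymine pathways, fell by 3.00. Oxct1, which commits ketone bodies to the mitochondrial acetyl-CoA pool, fell by 2.06. The groups of these genes did not overlap. The number of falls was 15 to 17 across the settings without P1 replicate 1, without adult replicate 4, or with 1 adult set.

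Pyruvate and tricarboxylic acid cycle genes fell in 12 of 37 cases and none rose, with a median of -0.71 as deposited. On the other scales 30 to 37 members were lower (medians -1.38 to -2.24). The count was 7 without P1 replicate 1, and 6 when adult replicate 4 was left out too. Pdk4, the kinase that shuts off pyruvate oxidation, read 16.7, 60.6, 49.4 and 10.2 RPKM in P1 and 45.8, 75.6 and 377 RPKM in adult. It was called (-2.06, SE 0.62, adjusted p = 0.00609 in limma) although 2 P1 libraries lay within the adult range, and its change was -1.10 against adult replicates 1 to 4 and -3.33 against 5 to 7. Me3 (-2.20), the mitochondrial malic enzyme, and Slc25a13 (-1.89), an aspartate-glutamate carrier, did not overlap.

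Nuclear genes of oxidative phosphorylation were mostly uncalled as deposited. Of 81, 10 fell and 2 rose, with a median of -0.63, while on the other scales 60 to 78 were lower (medians -1.33 to -2.19). The count of 10 is 5 without P1 replicate 1 or without adult replicate 4, and 17 against adult replicates 1 to 4. The deepest falls were of the muscle isoforms of cytochrome c oxidase subunits, Cox7a1 (-3.48), Cox8b (-2.68) and Cox6a2 (-2.10), and the rises were of their ubiquitous counterparts Cox6a1 (2.85) and Cox8a (2.02), the last named after its value was seen. Cox7a1 read 71.7, 128, 85.7 and 115 RPKM in P1 and 695, 1025 and 2540.0 RPKM in adult, the highest being adult replicate 4. The core ATP synthase subunit Atp5b read 878 to 1810.0 RPKM in P1 and 1257 to 1968 RPKM in adult, which overlap (-0.18).

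In the group of phosphagen, oxygen and iron handling, 10 of 25 genes rose and 5 fell, or 3 and 4 on all scales, and the median of 0.36 turned to -0.33 to -1.18 on the other scales. The falls were Ckmt2, Mb, Ckm (-2.61), the muscle creatine kinase of the cytosol, the adenylosuccinate synthase Adssl1 (-1.39, named after its value was seen) and Slc25a4 (-1.12), which lost its call with quantile normalization (-0.75) and without P1 replicate 1 (-0.88). Ckm read 75.9, 212, 167 and 153 RPKM in P1 and 560, 874.5 and 1326 RPKM in adult. The rises on all scales were of iron genes: Hmox1, the ferritin light chain Ftl1 (3.48) and the transferrin receptor Tfrc (2.70). Ftl1 read 1598, 980, 680 and 670 RPKM in P1 and 38.5, 96.4 and 169 RPKM in adult, and is a gene with several near-identical copies.

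Glucose genes split by isoform. Of 31, 13 rose and 8 fell (7 and 8 on all scales), and the median of 0.80 was 0.10 with an equal sum and -0.03 to -0.77 on the other 4 scales. Slc2a1, the basal glucose transporter, read 83.7, 28.2, 44.8 and 40.4 RPKM in P1 and 1.37, 2.42 and 3.72 RPKM in adult (4.04, SE 0.31). Slc2a4, the insulin-responsive transporter, read 3.98, 12.8, 9.19 and 6.23 RPKM in P1 and 34.4, 57.0 and 78.8 RPKM in adult (-2.76). Glucose entry genes thus stood in opposite order in the groups. G6pdx, the entry enzyme of the pentose phosphate pathway, rose by 3.93, from an adult median of 0.156 RPKM to 8.83 to 14.6 RPKM. Pgam1 (3.86) rose and Pfkm (-1.88) and Ldhb (-1.68) fell, the last making lactate dehydrogenase of the heart type.

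Metabolic regulators had 9 rises and 5 falls of 34 (4 and 5 on all scales), with a median of 0.69 that was 0.05 with an equal sum and -0.37 to -0.79 on the other 4. The falls were Klf15, Perm1 (-2.36), a muscle coregulator of mitochondrial genes, the nuclear receptor of fatty acid sensing Ppara (-1.51), the thyroid hormone receptor Thrb (-1.30) and Esrrb (-1.05), the last 2 named after their values were seen. Perm1 read 2.92, 16.2, 9.83 and 6.52 RPKM in P1 and 31.9, 42.0 and 50.0 RPKM in adult. The list had 13 rises without P1 replicate 1, 3 falls against adult replicates 1 to 4 and 8 falls against 5 to 7. The coactivator Ppargc1a (-0.25) and its partner Esrra (0.40) were not called as deposited. Rises on all scales were of Nmrk2, the kinase subunit Prkaa1 (2.69), the orphan receptor Nr4a1 (2.97, overlapping) and Sirt1. In the circadian clock 6 of 16 genes rose and none fell, 2 of them on all scales, Nfil3 (3.22) and Cry1 (2.60). Its median was 0.87 as deposited, 0.23 with an equal sum and -0.18 to -0.57 on the other 4. Against adult replicates 1 to 4 there were 10 rises, and against 5 to 7 there were 5 rises and 3 falls. The hour of collection is not given in the sources used here.

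Genes of DNA replication and G1/S rose in 37 of 43 cases and none fell, 11 of them on all scales. The median was 1.73, not far above 1.39 for all tested genes, and 0.29 to 1.17 on the other scales. Myc, the growth regulator, had the largest rise, at 71.4, 36.3, 43.6 and 19.5 RPKM in P1 and 0.150, 0.255 and 3.09 RPKM in adult (5.29, SE 0.43, adjusted p = 2.6e-08 in limma). The helicase subunits Mcm3 (3.78) and Mcm6 (3.63) were highest in P1 replicate 1, at 28.8 and 22.6 RPKM against 6.84 to 11.5 and 7.17 to 9.67 RPKM in the other P1 libraries. Of 64 listed genes 19 are outside the table. Of 47 mitosis and cytokinesis genes only 14 are in it, and Mki67, Ccnb1, Cdk1 and Aurkb are not. Among the 13 tested 11 rose and none fell, with Cdc25a (2.58), a phosphatase that activates cyclin-dependent kinases, and Smc4 (2.53), a condensin subunit, on all scales.

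As deposited, brakes of the cell cycle were called higher about as often as genes in general. Of 24 tested, 16 rose and none fell, near the 63.4% of all tested genes. On all scales 8 rose, a share above the 13.6% of all tested genes. The median was 1.46 (0.01 to 0.88 elsewhere) beside 1.39 for all tested genes. Cdkn1a, the p21 inhibitor of cyclin-dependent kinases, read 149, 226, 222 and 150.4 RPKM in P1 and 0.953, 4.01 and 10.2 RPKM in adult (5.33, SE 0.40, adjusted p = 1.5e-08 in limma). Trp53 read 43.1, 24.9, 26.8 and 28.0 RPKM in P1 and 0.383, 1.12 and 3.33 RPKM in adult (4.18), and Btg1, an antiproliferative cofactor, rose by 3.69. The groups did not overlap in any of these 3 genes.

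Growth factors and their receptors rose in 28 of 35 cases and 1 fell (20 and 1 on all scales), with a median of 2.82 (1.33 to 2.18 elsewhere). H19, Igf2 and Nppa were the largest. Fgf1 was the member that fell (-2.59), at 1.68 to 4.93 RPKM in P1 and 15.3 to 36.6 RPKM in adult. Nppb, the brain natriuretic peptide, read 237, 1240.0, 939 and 2606 RPKM in P1 and 41.1, 88.6 and 161 RPKM in adult, and its rise of 3.48 became 4.14 without P1 replicate 1. The type 1 IGF receptor Igf1r (3.43) and the ligand Tgfb2 (4.56) rose on all scales, and both were named after their values were seen.

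Wnt and Hippo-YAP genes rose in 42 of 45 cases and 1 fell, with 14 and 1 on all scales and a median of 2.09 (0.64 to 1.5 elsewhere). The 3 largest, Ctgf, Myc and Ajuba, are given above. The coactivator Yap1 was 1.82 higher, its DNA partner Tead1 1.42 and the Wnt coreceptor Lrp6 1.40, none of them called on all scales, and these 3 were named after their values were seen. Lgr6, an R-spondin receptor, read 0.578, 0.864, 0.541 and 0.662 RPKM in P1 and 1.27, 2.55 and 5.16 RPKM in adult (-1.60). Cardiac transcription factors had 24 rises and 2 falls of 34 (5 and 2 on all scales). The shares of rises were not far from the 63.4%, and 13.6% on all scales, of all tested genes. Their median of 1.27 was 0.66 with an equal sum, 0.31 without the 100 highest genes and -0.03 to -0.18 on the other 3. Tbx20, a T-box factor of the myocardium, read 21.2, 84.6, 62.6 and 50.7 RPKM in P1 and 3.31, 4.16 and 6.46 RPKM in adult (3.28). Klf6 (4.65) and Klf4 (2.81) also rose on all scales. Beside Klf15, the fall was of Hopx (-1.22), a homeodomain protein without DNA binding of its own, which lost its call without P1 replicate 1 (-0.84).

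RNA splicing regulators rose in 38 of 42 cases and none fell, 14 of them on all scales, with a median of 2.27 (0.75 to 1.59 elsewhere). Ptbp1, the repressor of tissue-specific exons, read 134, 48.2, 44.8 and 50.6 RPKM in P1 and 0.723, 1.78 and 5.64 RPKM in adult (4.71, SE 0.39). Igf2bp2, an mRNA-binding protein of fetal tissue, read 29.9, 15.4, 19.5 and 18.8 RPKM in P1 and 0.157, 0.443 and 0.896 RPKM in adult (4.44), and Fmr1 rose by 3.78. No member of these 3 overlapped. Rbm20 (0.93), Rbm24 (0.09) and Rbm38 (-0.02), splicing factors of striated muscle, were not called as deposited.

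Translation genes mostly rose as deposited. Of 82 cytosolic ribosomal protein genes 80 rose, beside 63.4% of all tested genes, with a median of 2.28 (0.72 to 1.58 elsewhere). On all scales 14 of the 82 rose, a share near the 13.6% of all tested genes. Rpl3l was the member that fell. Rpl3 had the largest rise, at 554, 432, 425 and 424 RPKM in P1 and 17.5, 26.7 and 73.5 RPKM in adult (3.99, SE 0.31, adjusted p = 1.7e-08 in limma). Next came Rpl34 (2.93) and Rpl30 (2.90), and no other member rose by more. Ribosomal protein genes have many processed copies in the genome, whose share of the reads is not given. Assembly and translation factors rose in 46 of 50 cases, 24 of them on all scales, with a median of 2.34 (0.89 to 1.71 elsewhere), led after Eef1a1 by the nucleolar proteins Nop58 (3.85) and Nop2 (3.67).

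Mitochondrial ribosomal proteins followed another course. Only 15 of 77 rose and none fell, with a median of 0.53, which turned to -0.16 to -0.99 on the other scales, where 4 to 38 members were lower. Mrps6 (2.63) was the member that rose on all scales, and 25 members rose when P1 replicate 1 and adult replicate 4 were left out. Proteasome and chaperone genes rose in 54 of 58 cases but in only 3 on all scales, with a median of 1.66 (0.10 to 0.96 elsewhere): the chaperone Hsp90aa1 (3.70), its cofactor Dnaja1 (2.67) and the chaperonin subunit Cct3 (2.66). Hspb6, a small heat shock protein of muscle, read 32.9, 59.4, 54.9 and 77.8 RPKM in P1 and 167, 235 and 335 RPKM in adult, and fell by 2.12.

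Cholesterol synthesis genes rose in 20 of 21 cases, 12 of them on all scales, with a median of 3.11 (1.66 to 2.53 elsewhere). Msmo1, a sterol oxidase, read 51.1, 49.0, 53.5 and 70.3 RPKM in P1 and 1.12, 1.40 and 2.27 RPKM in adult (4.80, adjusted p = 8.3e-11 in limma), and Idi1, the isomerase that makes the isoprenoid building blocks, 45.1, 32.3, 44.6 and 51.6 RPKM and 1.16, 1.38 and 1.72 RPKM (4.51). Values were tight within each group, P1 replicate 1 included, and the list's median was 3.05 without that library.

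Antioxidant genes had 15 rises and 4 falls of 37 (8 and 4 on all scales), with a median of 0.53 that was -0.15 to -0.99 on the other scales. Beside Hmox1, Txnrd1 (3.49), which reduces thioredoxin, and Gclc (3.16), which makes glutathione, rose. The falls were Gstm7 (-2.50), the mitochondrial transhydrogenase Nnt (-1.83), Mgst3 (-1.56) and Gsta4 (-1.14, named after its value was seen). Nnt read 7.52, 16.9, 13.7 and 15.5 RPKM in P1 and 35.3, 41.8 and 59.8 RPKM in adult. Of 22 immediate-early genes 13 rose, a share below the 63.4% of all tested genes, and 10 rose on all scales, where the share over all tested genes was 13.6% (median 2.07, 0.63 to 1.51 elsewhere), with Klf6 and Maff (4.15) next to Myc, while Fos (-0.68), Jun (0.27) and Egr1 (0.98) were not called. Such genes can respond to the handling of cells, and how the cells were isolated at either age is not given in the sources used here.

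Hypoxia genes had 10 rises and 1 fall of 19, or 3 and 1 on all scales, and the median of 1.23 was 0.14 to 0.56 with the equal sums and -0.12 to -0.22 on the other 3. Hif1a, the oxygen-regulated factor, read 64.8, 79.9, 81.3 and 83.8 RPKM in P1 and 4.67, 6.42 and 11.6 RPKM in adult (3.36), while Egln1, the prolyl hydroxylase that marks it for breakdown, read 25.6, 16.9, 18.8 and 19.5 RPKM in P1 and 46.5, 57.9 and 69.9 RPKM in adult (-1.49). Factor and hydroxylase thus went opposite ways. Among autophagy genes and muscle ubiquitin ligases 17 of 37 rose and 7 fell (3 and 7 on all scales), with a median of 0.98 that was 0.32 with an equal sum and -0.09 to -0.49 on the other 4. The falls include Asb14, Asb11 (-2.24) and Asb2 (-2.19) of the ASB family of ligase adaptors, and the rises the lysosomal protease Ctsl (3.13), the ligase Mib1 (2.71) and Tfe3 (2.69), a driver of lysosome genes.

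A ratio within a library is unchanged when all its RPKM are multiplied by 1 factor, though not by quantile normalization, under which the changes of Actc1 and Acta1 were 0.04 and -4.27 in place of -0.69 and -3.04. Ratios of RPKM as deposited were taken for 22 pairs of a fetal or general gene and its muscle or adult counterpart. In 19 of them no P1 library overlapped an adult one. Such separation was common for single genes, with P1 wholly above adult in 6012 and wholly below in 456 of 9190. How often ratios of other gene pairs separate was not computed, so the count of 19 has no background. The widest shift was that of Rpl3 over Rpl3l, at 363 to 845 in P1 and 0.269 to 0.547 in adult, so that the muscle paralog outweighed the general one in every adult library. Eef1a1 over Eef1a2 went from 22.2 to 80.4 in P1 to 0.190 to 1.01 in adult, and Slc2a1 over Slc2a4 from 2.20 to 21.1 to 0.0366 to 0.0642. The Slc2a partners changed order in every library, while the Eef1a partners reached about equal levels in the adult library with the highest ratio.

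The closest agreement among P1 libraries was in a pair of cytochrome oxidase subunits. Cox7a2 over Cox7a1 was 2.89 to 2.99 in P1 and 0.197 to 0.297 in adult, although Cox7a2 itself was not called (0.10), and Cox6a1 over Cox6a2 was 0.937 to 1.95 and 0.0340 to 0.0553. Among glycolytic pairs Pgam1 over Pgam2 was 0.933 to 3.00 and 0.0367 to 0.0641, Eno1 over Eno3 1.21 to 4.88 and 0.0255 to 0.0603, Pfkp over Pfkm 0.862 to 2.29 and 0.0377 to 0.0614, Hk1 over Hk2 1.59 to 2.46 and 0.386 to 0.813, and Ldha over Ldhb 1.29 to 5.66 and 0.245 to 0.303. The changes of Ldha and Hk2 on their own turned sign on some scales. The adenine nucleotide carriers Slc25a5 over Slc25a4 stood at 0.575 to 0.847 and 0.0405 to 0.0625, with the muscle form the higher at both ages.

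These 3 contractile pairs kept their order at both ages. Myh7 over Myh6 was 0.0141 to 0.0521 in P1 and 0.00189 to 0.00537 in adult, with Myh6 in large excess at both ages. Actc1 over Acta1 was 146 to 412 and 30.7 to 57.0, with the cardiac form further ahead at day 1. Myl4 over Myl3 was 0.0187 to 0.151 and 0.000101 to 0.000678. The ratios of Casq1 to Casq2, Ptbp2 to Ptbp1 and Mbnl2 to Mbnl1 overlapped between groups. P1 replicate 1 is the extreme P1 library in several pairs, such as Ckb over Ckm (0.681 against a P1 median of 0.139), and how the counting shared reads between such paralogs is not given in the sources used here.

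**Figure D5:**
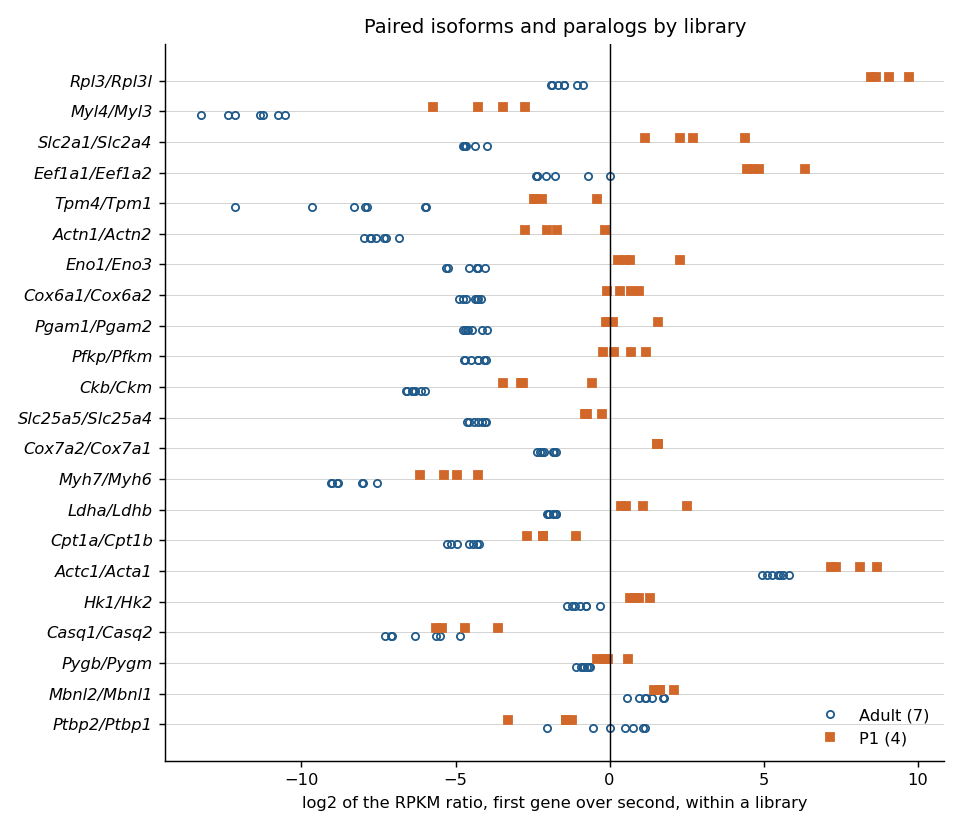
Log2 of the RPKM ratio of 22 gene pairs within each library (x), adults as open circles and P1 as squares, with the vertical line at equal levels. The points of Rpl3/Rpl3l and Slc2a1/Slc2a4 lie on opposite sides of the line in the groups, those of Cox7a2/Cox7a1 are tight in P1, and the bottom pairs Casq1/Casq2, Mbnl2/Mbnl1 and Ptbp2/Ptbp1 overlap.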

How the data were processed

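Cardiomyocyte RNA was sequenced, and the authors deposited RPKM values per gene, with replicates kept apart. HISAT2, Partek 6.6 and mm10 are named in the submitters' processing notes. The annotation, the strand setting and the rule for reads shared by several genes are not stated in any source used here, which leaves paralogs, processed copies and antisense partners uncertain. Of the 9666 genes, 15 carry names that a spreadsheet turned into dates, and 1 name occurs on 2 of them. The 9190 genes that reached 1 RPKM in 4 or more of the 11 libraries were tested with limma 3.58.1 in R 4.3.3, two-sided, on log2(RPKM + 0.5) with a mean-variance trend and no covariate, and tested on simulated data. The P3 libraries were left out. Values stepped in whole reads (tolerance 3e-05) for 8673 genes (89.7%), which gave the depths, though no count test was run on them.

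Members and gene lists were chosen with earlier results of these data known. Genes named are Cdh2 and Ctnnb1, the 15 largest rises and falls called on all scales without overlap and at 10 RPKM or more, the 10 highest of each group, up to 3 per list and direction, and both genes of each pair. Ryr2, Tmem38a, Atp2a2, Trdn, Ttn, Des, Kcnj12, Kcnj2, Fxyd1, Oxct1, Cox8a, Adssl1, Thrb, Esrrb, Ppargc1a, Esrra, Sirt1, Igf1r, Tgfb2, Yap1, Tead1, Lrp6, Rbm20, Rbm24, Rbm38, Gsta4, Fos, Jun, Egr1, Tpm2 and Tbx5 were named after their values were seen. Some genes that this rule names are not reported here. Coordinates are from GENCODE on mm10, and promoters from RefSeq.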

Additional observations from a re-analysis of the deposited data

Results flagged for a closer look

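In 342 sets of values, each 1 named gene in 1 group, the highest or lowest library was compared with the others by Dixon's test, and 23 stood far from the rest. Chance gives about 1 in 20. Adult replicate 4 and P1 replicate 1 account for 10 each.

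Adult replicate 4 had an RPKM total of 280112, against 145050 to 195003 in the other adults. Its values stood high for Myl2 at 11910.0 RPKM (other adults 5327 to 6383), Slc25a4 at 4118 (1929 to 2653), Cox7a1 at 2540.0 (694.9 to 1127), Cox6a2 at 2028 (862.7 to 1166), Cox8b at 1583 (376.9 to 688.2) and Hopx at 105.8 (45.82 to 65.35). It was also high in Tpt1 at 1498 RPKM (624.5 to 897.5), Ppia at 237.7 (62.33 to 91.1), Rpl3 at 73.51 (17.5 to 31.97) and Mrps6 at 30.64 (10.76 to 16.35). As a share of the library's total, its Myl2 was 4.25% (3.06% to 4.15% in the other adults), its Slc25a4 1.47% (1.28% to 1.46%), its Cox7a1 0.907% (0.399% to 0.736%) and its Hopx 0.0378% (0.0263% to 0.0403%). Its marker sums in RPKM were the highest of the adults for cardiomyocyte, fibroblast, endothelial and mural lists. As shares of the total only the endothelial sum of these 4 was the highest, at 0.489% (0.00619% to 0.261%), while the cardiomyocyte sum was 17.3% (16.2% to 17.6%).

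P1 replicate 1 was high in Postn at 634.5 RPKM (other P1 libraries 95.33 to 103.5), Rpl3 at 554.1 (424.0 to 431.8), Col3a1 at 400.8 (19.01 to 23.27), Ptbp1 at 133.8 (44.78 to 50.58) and the vasodilator peptide Adm at 39.13 (12.32 to 12.98). It was low in the sarcomere genes Tnnt2 at 856.7 RPKM (1590.0 to 1793), Myl3 at 641.4 (1221 to 1316) and Actn2 at 109.5 (328.8 to 395.4), in Eno3 at 88.13 (165.3 to 187.9) and in Hrc at 1.605 (4.678 to 5.684). What sets these libraries apart was not tested.

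Adult replicate 7 was high in Asb14 at 25.17 RPKM (19.71 to 21.31) and Myc at 3.086 (0.1504 to 0.6454), and adult replicate 1 was low in Asb11 at 32.71 (47.77 to 58.82).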

How the results depend on the processing

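Against 5823 higher and 408 lower genes, centring on the median gene gave 1286 and 1988, quantile normalization 1594 and 1671, median of ratios 1448 and 1839, an equal sum 3842 and 854, and an equal sum without the 100 highest genes 2530 and 1288. Testing only genes at 1 RPKM or more in all 11 libraries gave 3388 higher and 282 lower, or 837 and 280 on all scales. Fewer genes were tested there, and a gene under 1 RPKM in any library was left out. Of the original calls, 58.2% of the higher and 69.1% of the lower remained. Of the 1250 rises on all scales 601 remained (48.1%), and of the 406 falls 280. Leaving out 1 library at a time gave 5663 to 5957 higher and 352 to 451 lower, and 1092 to 1299 and 350 to 447 on all scales. The alternative without P1 replicate 1 and adult replicate 4 was chosen after seeing the data. On some scale the change of 10 of 166 named genes turned sign, 4 of them called as deposited. Centring on the median gene, quantile normalization and median of ratios gave Ckb -0.19, -0.03 and -0.26, and Mbnl1 -0.11, -0.02 and -0.16. Centring and median of ratios gave Ldha -0.14 and -0.26, and, with the sum without the 100 highest, Tpt1 -0.44, -0.56 and -0.13. All 5 scales, in the order above, gave Cox7a2 -1.35, -0.69, -1.47, -0.60 and -1.03, Hk2 -1.09, -0.89, -1.18, -0.33 and -0.75, and Casq1 -0.98, -0.93, -0.86, -0.13 and -0.51. Quantiles alone gave Actc1 0.04, Tnnt2 0.06 and Atp5b 0.25. The cause was not tested. Genes near the table's floor rest on few reads.

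The replicate numbers shared by P1 and adult did not pair the samples: deviations of same-numbered samples correlated at 0.28, 0.13, 0.08 and -0.02. With a replicate block the counts were 6177 and 366, or 1211 and 363 on all scales.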
